A study of Mus musculus with 10 samples.

Results

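Immediate early genes are the genes that a cell transcribes first after a stimulus, without needing new protein, and most of them encode transcription factors. The set described here held 10 of them, Fos, Fosb, Jun, Junb, Egr1, Atf3, Ier2, Nr4a1, Btg2 and Klf4, and its members were all peaks that the annotation of the peak set assigned to these symbols. They came to 38 of 108253 peaks, of which 13 were promoter peaks and 25 lay elsewhere. Peaks outside genes are assigned by such annotation to the nearest start, which need not be the gene they act on. Btg2 and Nr4a1 had 8 peaks each, Fos had 7, Egr1 had 4, Atf3 had 3, Klf4, Fosb and Junb had 2 each, and Ier2 and Jun had 1 each.

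The peaks were measured by CUT&Tag, in which an antibody brings an enzyme to a modified histone so that the sequenced fragments mark the site. Retinas of wild-type C57BL/6J mice at postnatal day 28 were explanted, freed of sclera and pigment epithelium, and cultured for 48 hours in medium with 5 mM or 25 mM glucose. Lactylation of histone H3 at lysine 18 (H3K18La) was profiled in 3 libraries per glucose level and acetylation at lysine 27 (H3K27Ac) in 2, each from 500000 cells dissociated with papain, and all 10 libraries carry the same batch label. The sample titles and the study's methods name H3K27Ac for the second antibody, whereas the extraction text of the labels lists H3K9me3. That text also names an MNase fusion beside a CUT&Tag kit, where the study's methods give the transposase pA-Tn5, and the titles were followed here. The cells came from the whole retina, so that more cells carrying a mark and more of the mark per cell cannot be told apart.

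In neurons, the serum response factor, which binds the CArG box, and CREB, which binds the cyclic AMP response element (CRE), start transcription of these genes after calcium entry, growth factors or stress. FOS and JUN family proteins then pair as the AP-1 factor, EGR1 is a zinc finger activator, NR4A1 is an orphan nuclear receptor, and ATF3 belongs to the CREB family. BTG2 restrains proliferation, IER2 is a small nuclear protein, and KLF4 is a zinc finger factor known from stem cells and epithelia. Acetylation of H3K27 marks active promoters and enhancers, while lactylation of H3K18 uses a group derived from lactate, the end product of glycolysis. The question put to these peaks was whether either mark differed at them between the glucose levels.

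RefSeq promoter sequences (GRCm38.p6) were matched for 8 of the 10 genes, Fos, Fosb, Jun, Junb, Atf3, Nr4a1, Btg2 and Klf4. The 250 bases before the start are shown for 6 of them, 5 because they had the largest H3K18La differences of the set at their strongest promoter peaks with all libraries used (below), and Klf4 because neither mark rose there. Jun and Atf3, where both marks also rose, are not shown. The bases of Fos, Junb and Nr4a1 lie outside the strongest promoter peak, inside the other promoter peak of the gene. Capitals mark the CRE core TGACG, the full CRE TGACGTCA, the TATA box TATAAA and the GC box GGGCGG, a site of SP family factors, on either strand.
Fos, chr12:85473640-85473889, plus strand: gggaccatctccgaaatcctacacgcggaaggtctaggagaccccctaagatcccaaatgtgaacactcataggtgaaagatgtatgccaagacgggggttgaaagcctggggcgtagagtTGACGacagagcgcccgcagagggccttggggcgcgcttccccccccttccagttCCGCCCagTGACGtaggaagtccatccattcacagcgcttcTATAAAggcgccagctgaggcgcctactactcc
Fosb, chr7:19310046-19310295, minus strand: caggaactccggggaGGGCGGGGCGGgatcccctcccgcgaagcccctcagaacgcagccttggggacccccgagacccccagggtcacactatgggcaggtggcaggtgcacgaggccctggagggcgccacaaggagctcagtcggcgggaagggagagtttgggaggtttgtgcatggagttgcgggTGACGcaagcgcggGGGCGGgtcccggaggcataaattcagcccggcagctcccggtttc
Junb, chr8:84978749-84978998, minus strand: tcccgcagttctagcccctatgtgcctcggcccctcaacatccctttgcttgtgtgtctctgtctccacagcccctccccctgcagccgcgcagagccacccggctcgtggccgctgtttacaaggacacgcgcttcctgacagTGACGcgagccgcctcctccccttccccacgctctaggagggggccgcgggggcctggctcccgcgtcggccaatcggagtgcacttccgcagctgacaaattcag
Nr4a1, chr15:101266596-101266845, plus strand: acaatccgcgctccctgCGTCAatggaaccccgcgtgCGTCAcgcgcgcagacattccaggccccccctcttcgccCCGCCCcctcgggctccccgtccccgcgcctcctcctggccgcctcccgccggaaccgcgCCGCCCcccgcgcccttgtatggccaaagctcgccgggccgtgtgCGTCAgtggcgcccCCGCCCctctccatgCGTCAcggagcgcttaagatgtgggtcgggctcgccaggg
Btg2, chr1:134079156-134079405, minus strand: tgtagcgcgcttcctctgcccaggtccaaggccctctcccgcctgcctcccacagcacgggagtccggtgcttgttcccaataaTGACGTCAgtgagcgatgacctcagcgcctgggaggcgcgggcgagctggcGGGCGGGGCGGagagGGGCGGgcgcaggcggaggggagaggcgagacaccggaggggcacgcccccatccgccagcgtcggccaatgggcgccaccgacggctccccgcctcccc
Klf4, chr4:55532476-55532725, minus strand: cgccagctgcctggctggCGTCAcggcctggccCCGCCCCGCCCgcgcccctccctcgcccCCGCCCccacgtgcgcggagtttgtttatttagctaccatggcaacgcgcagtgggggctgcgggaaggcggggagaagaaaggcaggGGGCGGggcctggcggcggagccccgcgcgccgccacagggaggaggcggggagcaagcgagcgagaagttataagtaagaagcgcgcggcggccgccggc

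In windows of 300 bases (250 before and 50 after the start), the CRE core was present in 7 of the 8 promoters, against 20.8% of 32851 RefSeq promoters. Nr4a1 held 4 copies, Fos held 2, and Jun held none. The full CRE, which reads the same on both strands and so contains the core once on each, was found at Btg2 alone, 166 bases before the start, and in 1.79% of all promoters. GC boxes were present in 7 of the 8 genes against 35.7% of all promoters, with 5 copies at Atf3 and none at Junb. The TATA box stood 33 bases before the Fos start and began at the start itself at Junb, and was held by 13.6% of all promoters. Neither the CArG box nor the AP-1 site TGACTCA occurred in these windows, against 1.63% and 5.20% of all promoters. Klf4 had 1 CRE core and 4 GC boxes. These matches describe letters and not binding.

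When the window was widened, after these results were seen, to 500 bases before the start, the CArG box was found at Fos and Fosb among the 8 genes, and in 2.75% of all promoters. Both sites lay inside a promoter peak of their gene. They are shown with 10 bases on each side, the box in capitals, because these genes had the largest promoter differences with all libraries used.
Fos, chr12:85473581-85473590, plus strand, 309 bases before the start: cacaggatgtCCATATTAGGacatctgcgt
Fosb, chr7:19310308-19310317, minus strand, 272 bases before the start: tggccgagctCCTTATATGGctaattgcgt

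Signal was measured as RPKM, reads scaled to the length of the peak and to the denominator of the library. Values were compared on the log2(RPKM + 0.5) scale with limma, each mark alone, and p-values were adjusted by the Benjamini-Hochberg method over all 72467 peaks with a mean of at least 1 RPKM; a peak rose or fell if its adjusted p was at most 0.05. Of the 38 member peaks, 37 met that mean, and the exception was the weak Klf4 peak in the 5′ UTR. The denominators ranged from 1358008 to 7424470 reads, and the share of them inside peaks was 11.81% to 12.01% for H3K18La at 5 mM and 31.2% to 35.0% at 25 mM. For H3K27Ac this share was 21.12% to 31.53% at 5 mM and 56.5% to 69.5% at 25 mM. The signal of peaks in general was therefore higher at 25 mM, with a median log2 difference over all tested peaks of 1.04 for H3K18La and 0.83 for H3K27Ac, and the values of the genes are given beside those medians.

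H3K18La rose at 25 mM at 28 of the 37 tested member peaks and fell at none, where 33.3% of all tested peaks rose and 0.098% fell. The median log2 difference of the members was 1.80 against 1.04 over all tested peaks, and 33 of 37 members lay above the latter. H3K27Ac rose at 33 of the 37 and fell at none, where 33.5% of all tested peaks rose and 0.174% fell. The median difference of the members in H3K27Ac was 1.73 against 0.83 over all tested peaks, with 34 of 37 members above it. The share of all peaks that rose was larger among stronger peaks. At a mean of at least 2 RPKM, H3K18La rose at 28 of 33 members and 55.3% of all peaks (medians 1.843 and 1.295). H3K27Ac then rose at 33 of 33 members and 54.2% of all peaks (medians 1.762 and 1.085). With RPKM as deposited, no member peak was lower at 25 mM in either mark at an unadjusted p under 0.05 with limma, nor passed as lower with voom; the Klf4 promoter was lower at that unadjusted p in H3K27Ac under 2 other scalings (below). Libraries of the 2 glucose levels did not overlap, with 25 mM higher, at 34 of the 38 member peaks in H3K18La (36.6% of all peaks) and at 36 in H3K27Ac (53% of all peaks). After each library was centred on its own median peak, 2 member peaks passed in either mark, the Btg2 peak at -6589 bp and the Nr4a1 peak in its 5′ UTR for H3K18La, and the Fos peak over the start and the Fosb promoter for H3K27Ac. No member peak passed once libraries were scaled to their signal in peaks or quantile normalized, although the median of the members stayed above that of all peaks by 0.58 and 0.44 for H3K18La and by 0.75 and 0.35 for H3K27Ac. The H3K27Ac calls depended on the 25 mM libraries, since 0 of 37 passed without replicate 1 at 25 mM (8 at an unadjusted p under 0.05, as 12.1% of all peaks) and 2 of 37 without replicate 2 (1.2% of all peaks), with member medians of 1.39 and 2.06. Without replicate 1 or 2 at 5 mM, 30 and 34 of the 37 still passed, where 22.3% and 52.7% of all peaks did. With no filter on low values, 0 of 38 H3K27Ac member peaks passed (32 at an unadjusted p under 0.05; lowest adjusted p 0.125) and 0% of all peaks did, against 24 of 38 and 16.8% in H3K18La. With voom, where 40.7% of all tested peaks rose in H3K18La, 4 more member peaks passed in that mark. These were the Ier2 peak, the Fosb exon peak, the Nr4a1 peak downstream of the gene and the weaker Atf3 intron peak. With 1 fit of all 4 groups, the first 3 of these and an Egr1 peak downstream of the gene were gained. The same fit lost 8 H3K27Ac calls, at the Atf3 promoter, the Fosb exon, 2 peaks each of Fos and Nr4a1, and 1 each of Btg2 and Egr1. In that fit 41.6% of all tested peaks rose in H3K18La and 10.1% in H3K27Ac.

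At promoters alone, H3K18La rose at 11 of 13 member peaks, where 26.8% of 14815 tested promoter peaks rose, with a median of 1.66 against 0.97. H3K27Ac rose at 12 of the 13, where 58% of promoter peaks rose, with a median of 1.87 against 1.23. Outside promoters, H3K18La rose at 17 of 24 tested members, where 35% of 57652 peaks rose (median 1.87 against 1.07), and H3K27Ac at 21 of 24, where 27.2% rose (median 1.64 against 0.74). When each gene was represented by its strongest promoter peak, the peak with the highest mean over the 10 libraries, H3K18La rose at 8 of the 10 genes, where 26.4% of 12657 genes did. H3K27Ac rose at 9 of the 10, where 59.8% of genes did. Ier2 and Klf4 were the genes that did not pass in H3K18La, and Klf4 alone did not pass in H3K27Ac.

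**Figure D1:**
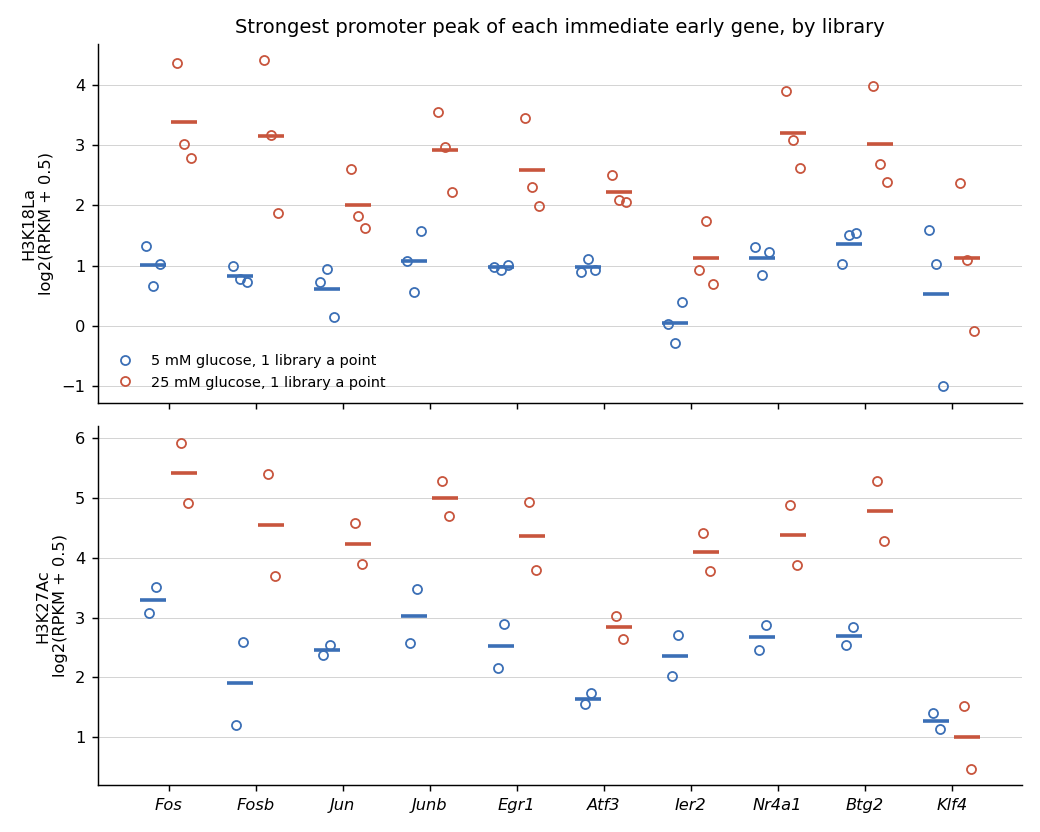
Level of H3K18La (top) and H3K27Ac (bottom) at the strongest promoter peak of each of the 10 genes, as log2(RPKM + 0.5); each circle is 1 library, blue for 5 mM and red for 25 mM glucose, and bars are group means. In 9 of the 10 genes every 25 mM library lies above every 5 mM library in both marks, and Klf4 is the exception.

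Fos and Fosb had the largest promoter differences with all libraries used, and without replicate 1 at 25 mM the H3K18La values were 1.89 at Fos, 1.73 at Nr4a1 and 1.69 at Fosb. At the Fos peak upstream of the start (chr12:85471733-85473158, 732 bp from the nearest start), H3K18La was 2.00, 1.08 and 1.55 RPKM in the 5 mM libraries and 19.98, 7.59 and 6.38 RPKM at 25 mM. The groups did not overlap, and replicate 1 at 25 mM was the highest by far. This rise was 2.38 ± 0.42 (SE) on the log2 scale with an adjusted p of 0.00204. H3K27Ac at the same peak was 7.95 and 10.8 RPKM at 5 mM and 60.2 and 29.7 RPKM at 25 mM, a difference of 2.13 ± 0.54 (adjusted p = 0.00187). The second Fos promoter peak, over the first exon and holding the CArG box, had the higher H3K27Ac difference of 2.48 ± 0.50 (adjusted p = 0.000135).

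Fosb, which encodes a partner of JUN proteins, had its promoter peak at chr7:19310170-19310808. Its H3K18La was 1.48, 1.21 and 1.15 RPKM at 5 mM, from 1 to 4 reads, and 20.7, 8.47 and 3.17 RPKM at 25 mM. All 25 mM libraries were higher, but they differed widely among themselves, with an SD of 8.99 around a mean of 10.8 RPKM. H3K27Ac was 1.81 and 5.54 RPKM at 5 mM and 41.5 and 12.4 RPKM at 25 mM. Both marks rose, H3K18La by 2.32 ± 0.53 (adjusted p = 0.00736) and H3K27Ac by 2.64 ± 0.47 (adjusted p = 1.47e-05). The latter was the highest H3K27Ac difference among the members, and its SE is the shared one, although its own libraries differed widely. The Fosb H3K27Ac difference was 1.79 without replicate 1 at 25 mM, where it no longer passed (adjusted p = 0.409), and 3.49 without replicate 2.

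Jun and Junb, whose proteins pair with FOS, had lower differences than Fos and Fosb at the strongest promoter peaks with all libraries used. This contrast was not tested. At Jun, a single peak of 3662 bp (chr4:95050090-95053751) covered the gene and exons of the antisense Junos. H3K18La there was 1.17, 1.42 and 0.603 RPKM at 5 mM and 5.56, 3.02 and 2.58 RPKM at 25 mM. H3K27Ac was 4.67 and 5.32 RPKM at 5 mM and 23.4 and 14.3 RPKM at 25 mM, so neither mark overlapped between the groups. The differences were 1.41 ± 0.44 (adjusted p = 0.0311) and 1.78 ± 0.48 (adjusted p = 0.0034). The H3K18La call at Jun was lost without replicate 3 at 5 mM (adjusted p = 0.0592), without replicate 1 (0.126) or 2 (0.0768) at 25 mM, and with no filter on low values (0.051). At the upstream Junb promoter peak (chr8:84979595-84981368), H3K18La was 1.60, 0.979 and 2.49 RPKM at 5 mM against 11.2, 7.35 and 4.18 RPKM at 25 mM. The H3K27Ac values of 5.47 and 10.6 RPKM rose to 38.4 and 25.5 RPKM. Junb thus rose in both marks, by 1.84 ± 0.42 (adjusted p = 0.00689) and by 1.96 ± 0.51 (adjusted p = 0.00267). The Junb peak over the gene, which holds the bases printed above, had an H3K18La difference of 1.30 ± 0.45 (adjusted p = 0.0447), a call lost without replicate 1 (0.167), 2 (0.0951) or 3 (0.0602) at 25 mM.

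Egr1 encodes the zinc finger factor used as a mark of neuronal activity. Its promoter peak, over the gene (chr18:34859854-34861794), had nearly equal H3K18La in the 5 mM libraries, at 1.47, 1.39 and 1.52 RPKM, and 10.5, 4.43 and 3.47 RPKM at 25 mM. H3K27Ac was 3.93 and 6.88 RPKM at 5 mM and 29.9 and 13.3 RPKM at 25 mM. Egr1 rose by 1.61 ± 0.42 in H3K18La (adjusted p = 0.0134) and by 1.84 ± 0.48 in H3K27Ac (adjusted p = 0.00272), and its H3K18La call was lost without replicate 1 at 25 mM (adjusted p = 0.0584). Nr4a1 has 2 annotated promoters with a peak, nearly equal in mean over the 10 libraries. In H3K27Ac the downstream one had the higher mean, 6.36 against 5.94 RPKM at 5 mM and 24.8 against 21.6 RPKM at 25 mM. The stronger over the 10 libraries, by 8.835 against 8.818 RPKM, lay at the upstream start (chr15:101253531-101254728). H3K18La there was 1.98, 1.29 and 1.84 RPKM at 5 mM and 14.4, 8.01 and 5.63 RPKM at 25 mM, while H3K27Ac was 5.02 and 6.86 RPKM against 29.0 and 14.3 RPKM. The rise at Nr4a1 was 2.08 ± 0.38 in H3K18La (adjusted p = 0.0022) and 1.71 ± 0.49 in H3K27Ac (adjusted p = 0.00524). At the downstream promoter, whose 250 upstream bases with 4 CRE cores are printed above, the differences were 1.82 ± 0.43 (adjusted p = 0.00841) and 1.90 ± 0.49 (adjusted p = 0.00256).

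Btg2 had its promoter peak at chr1:134077927-134080069. H3K18La was 1.55, 2.34 and 2.40 RPKM at 5 mM, the highest mean of the 10 genes at that glucose level, and 15.2, 5.97 and 4.72 RPKM at 25 mM. H3K27Ac was 5.29 and 6.69 RPKM at 5 mM and 38.3 and 18.9 RPKM at 25 mM. Both marks rose, by 1.66 ± 0.42 (adjusted p = 0.0118) and 2.09 ± 0.50 (adjusted p = 0.00112). Atf3, a stress-responsive repressor, changed least among the genes that passed. Its promoter peak (chr1:191182439-191185574) had H3K18La of 1.36, 1.66 and 1.41 RPKM at 5 mM and 5.19, 3.76 and 3.65 RPKM at 25 mM, and H3K27Ac of 2.43 and 2.82 RPKM against 7.62 and 5.75 RPKM. These were differences of 1.24 ± 0.36 (adjusted p = 0.0214) and 1.19 ± 0.44 (adjusted p = 0.0272), and the H3K27Ac difference was below the median of 1.27 over the strongest promoter peaks of all genes. The H3K18La call at Atf3 was lost without replicate 1 (adjusted p = 0.0729) or 2 (0.0625) at 25 mM.

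Ier2 and Klf4 departed from the other genes in different ways. The Ier2 peak (chr8:84661226-84663043) had H3K18La of 0.521, 0.318 and 0.810 RPKM at 5 mM, from only 2 to 3 reads per library, and 1.40, 2.84 and 1.11 RPKM at 25 mM. The groups did not overlap, but the difference of 1.07 ± 0.53 did not pass (adjusted p = 0.134); it passed with voom (1.82, adjusted p = 0.00709) and with 1 fit of all 4 groups (adjusted p = 0.0466). H3K27Ac at the same peak was 3.56 and 6.02 RPKM at 5 mM and 20.7 and 13.3 RPKM at 25 mM, and rose by 1.73 ± 0.47 (adjusted p = 0.00386). At Klf4 (chr4:55532493-55533250), H3K18La was 2.50, 1.53 and 0 RPKM at 5 mM and 4.70, 1.62 and 0.445 RPKM at 25 mM. H3K27Ac was 2.14 and 1.70 RPKM at 5 mM and 2.38 and 0.888 RPKM at 25 mM. The groups overlapped in both marks, and the differences of 0.59 ± 0.77 (adjusted p = 0.56) and -0.27 ± 0.46 (adjusted p = 0.663) did not pass, on no more than 13 reads in any library. The H3K18La difference at Klf4 turned negative, to -0.29, when libraries were centred on the median. In H3K27Ac it was then -0.96 ± 0.44 (adjusted p = 0.207), and -1.29 ± 0.46 with libraries scaled to signal in peaks (adjusted p = 0.218), each at an unadjusted p under 0.05 and neither passing. A difference from the other members was not tested.

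In the order of levels at 25 mM, Fos led in both marks, with a mean of 11.3 ± 7.53 RPKM (SD, n = 3) in H3K18La and 45.0 ± 21.6 RPKM (SD, n = 2) in H3K27Ac. H3K18La then ran through Fosb, Nr4a1, Btg2, Junb, Egr1, Atf3, Jun and Klf4 to Ier2, with ranges that overlapped between every pair of neighbours. H3K27Ac ran from Fos through Junb, Btg2, Fosb, Nr4a1, Egr1 and Jun to Ier2 with overlapping ranges, and Ier2 (17.0 ± 5.28 RPKM) stood clear of Atf3 (6.69 ± 1.322 RPKM), which stood clear of Klf4 (1.64 ± 1.06 RPKM). At 5 mM, neighbours in the order overlapped throughout in H3K18La, where Btg2 was first with 2.10 ± 0.477 RPKM and Ier2 last with 0.550 ± 0.247 RPKM. In H3K27Ac at 5 mM, Fos was first with 9.39 ± 2.05 RPKM and only Klf4 (1.92 ± 0.308 RPKM) stood clear of its neighbour Atf3 (2.63 ± 0.276 RPKM).

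Ranks within a library do not depend on its scale, and were taken for each gene's strongest promoter peak among 14562 genes with a promoter peak. The median percentile of the 10 genes in H3K18La was 72.3 ± 0.869 (SD, n = 3) at 5 mM and 88.2 ± 6.61 at 25 mM, with no overlap between the libraries (71.6 to 73.3 against 81.5 to 94.7). In H3K27Ac it was 71.4 ± 0.793 (SD, n = 2) at 5 mM and 82.3 ± 9.19 at 25 mM, again with no overlap (70.9 to 72.0 against 75.8 to 88.8). Fos moved from percentile 72.9 to 95.2 in H3K18La and from 92.5 to 97.7 in H3K27Ac. Fosb moved from 66.7 to 90.7 and from 50.4 to 83.7, the largest shift in H3K27Ac. Atf3 kept nearly the same percentile in H3K27Ac, 42.9 at 5 mM and 44.2 at 25 mM, though its level was higher. Klf4 had the lower percentile at 25 mM in both marks, 44.9 against 61.3 in H3K18La with wide overlap, and 16.5 against 33.6 in H3K27Ac. Ier2 ranked far lower in H3K18La, at percentile 28.9 and 44.6, than in H3K27Ac, at 65.8 and 75.4. Atf3 was the reverse, at 73.4 and 81.7 in H3K18La. These ranks are descriptions and were not tested.

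**Figure D2:**
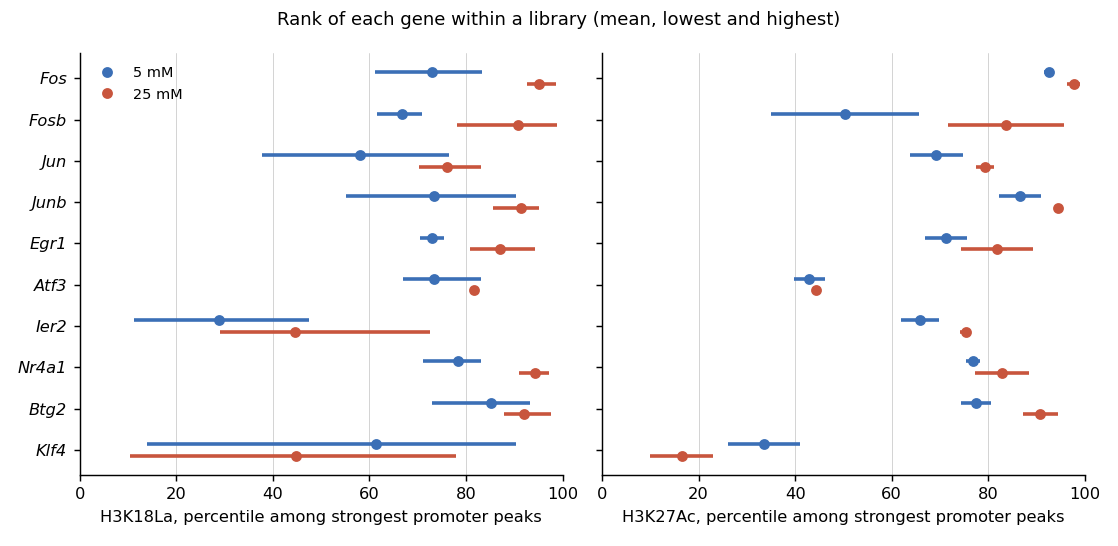
Percentile of each gene's strongest promoter peak among the strongest promoter peaks of 14562 genes, for H3K18La (left) and H3K27Ac (right); dots are means over libraries, lines run from the lowest to the highest library, blue for 5 mM and red for 25 mM. Every gene but Klf4 has a higher mean percentile at 25 mM in both marks, and Klf4 has a lower one in both.

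Together, the 38 peaks covered 53408 bp, or 0.0555% of the length of all peaks. They held 0.0849%, 0.0783% and 0.0729% of the H3K18La reads in peaks at 5 mM, from 117 to 483 reads, and 0.171%, 0.114% and 0.0890% at 25 mM, from 823 to 1466 reads. For H3K27Ac the shares were 0.127% and 0.129% at 5 mM and 0.228% and 0.162% at 25 mM. The shares did not overlap between glucose levels in either mark, and their ratio was 1.58 in H3K18La and 1.53 in H3K27Ac. Replicate 1 at 25 mM was the highest in both, and without it the ratios were 1.29 and 1.27. Wilson 95% intervals of neighbouring libraries in H3K18La overlapped, at 0.0743% to 0.0970% for the highest 5 mM library and 0.0831% to 0.0953% for the lowest 25 mM library.

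Replicate 1 at 25 mM was the highest library of its group at 29 of the 38 member peaks in H3K18La, against 44.8% of all tested peaks and 61.5% of tested promoter peaks. It was the highest at 36 of 38 in H3K27Ac, against 60.6% of all tested peaks and 82.4% of promoter peaks. The ratio of this library to the mean of the others had a median of 1.63 at the members and 1.06 over all tested peaks in H3K18La, and of 1.60 and 1.09 in H3K27Ac. Without it, H3K18La rose at 22 of 37 member peaks, where 22.9% of all tested peaks rose, with a median difference of 1.49 against 1.03 over all peaks. Its part in the results was otherwise not tested.

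Away from promoters, the strongest peak of the set lay 17349 bp from the Btg2 start, in intergenic sequence (chr1:134060547-134061771). H3K18La there was 6.97, 5.20 and 4.21 RPKM at 5 mM and 39.0, 22.7 and 18.7 RPKM at 25 mM, and H3K27Ac was 21.3 and 27.5 RPKM against 109 and 66.6 RPKM. The groups stood well apart, with differences of 2.15 ± 0.30 (adjusted p = 0.000714) and 1.79 ± 0.63 (adjusted p = 0.0202). The other 6 Btg2 peaks outside the promoter also rose in both marks, by 1.80 to 2.17 in H3K18La and by 1.44 to 1.76 in H3K27Ac. Of all tested peaks outside promoters, 35% and 27.2% rose. With all libraries used, every Btg2 peak outside the promoter had an H3K18La difference above that of the Btg2 promoter (1.66). The promoter had the highest H3K27Ac difference of the locus (2.09). Without replicate 3 at 25 mM, H3K18La differed by 1.97 at the promoter and by 1.84 at the Btg2 peak 3490 bp upstream. The contrast between these peaks was not tested. Levels were higher farther downstream of the gene, running from 9.59 ± 3.29 RPKM (SD, n = 3) of H3K18La at 25 mM at the peak 6876 bp away through 19.2 ± 5.80 and 17.5 ± 5.86 RPKM to 26.8 ± 10.8 RPKM at the farthest. The centre of this farthest peak held none of the searched motifs in 200 bases.

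Nr4a1 carried its strongest peaks inside the gene, between its 2 promoters. At the peak annotated to the 5′ UTR (chr15:101257465-101259172), H3K18La was 1.94, 2.71 and 2.59 RPKM at 5 mM and 20.9, 13.7 and 10.5 RPKM at 25 mM. H3K27Ac was 9.88 and 14.6 RPKM against 58.6 and 31.3 RPKM. The rise of 2.37 ± 0.31 in H3K18La (adjusted p = 0.000602) was a higher value than at either Nr4a1 promoter, and that in H3K27Ac was 1.79 ± 0.55 (adjusted p = 0.00883). The intronic peak 6755 bp from the start reached 15.6 ± 8.74 RPKM of H3K18La and 41.1 ± 7.37 RPKM of H3K27Ac at 25 mM, and rose by 1.94 ± 0.43 (adjusted p = 0.00609) and 1.56 ± 0.55 (adjusted p = 0.0216). Of the 8 Nr4a1 peaks, 7 rose in H3K18La and 8 in H3K27Ac, where 33.3% and 33.5% of all tested peaks rose. The exception was the intergenic peak downstream of the gene, 3502 bp from the nearest annotated start, with an H3K18La difference of 1.27 ± 0.54 (adjusted p = 0.0872), which passed with voom (adjusted p = 0.0245) and with 1 fit of all 4 groups (adjusted p = 0.026).

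Fos had distal peaks on both sides. The farthest upstream, 17792 bp away (chr12:85454439-85456098), was the strongest, with H3K18La of 5.14, 2.79 and 1.77 RPKM at 5 mM and 28.2, 12.7 and 8.12 RPKM at 25 mM. H3K27Ac was 8.36 and 11.6 RPKM at 5 mM and 56.9 and 27.9 RPKM at 25 mM. Both rose without overlap, by 2.09 ± 0.45 (adjusted p = 0.00519) and 1.96 ± 0.54 (adjusted p = 0.00386). The short Fos peak 12567 bp downstream had the highest H3K18La value of the members, 2.83 ± 0.66 (adjusted p = 0.00804), but the 5 mM libraries held 0, 2.62 and 0 RPKM from at most 6 reads. With voom it was 2.21, below the 2.62 of the Fos peak upstream of the start. At the outermost Fos peak, 25598 bp downstream, H3K27Ac rose by 1.15 ± 0.45 (adjusted p = 0.0372) and H3K18La differed by 0.78 ± 0.47 (adjusted p = 0.213).

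Egr1, Fosb, Atf3 and Klf4 had the remaining peaks. The Egr1 peak 3746 bp upstream (chr18:34855154-34856077) was stronger than the Egr1 promoter in both marks. Its H3K18La was 4.11, 4.59 and 7.17 RPKM at 5 mM and 9.91, 14.4 and 13.5 RPKM at 25 mM, and its H3K27Ac was 10.0 and 12.9 RPKM against 35.4 and 27.4 RPKM. It rose by 1.20 ± 0.28 (adjusted p = 0.00847) and 1.42 ± 0.53 (adjusted p = 0.0294), the H3K18La call being lost without replicate 2 at 25 mM (adjusted p = 0.0509). Its sign turned in H3K18La with libraries scaled to signal in peaks (-0.16) and in both marks when quantile normalized (-0.38 and -0.11). Replicate 1 was the lowest 25 mM library for H3K18La here. Of the 2 Egr1 peaks downstream, neither passed in H3K18La, and the farther passed in H3K27Ac with 1.37 ± 0.44 (adjusted p = 0.0112). The Fosb peak over an exon (chr7:19307422-19309048) rose in H3K27Ac by 2.13 ± 0.48 (adjusted p = 0.000595), from 3.41 and 5.74 RPKM to 30.5 and 14.6 RPKM, a call lost with 1 fit of all 4 groups (adjusted p = 0.0528). Its H3K18La values of 1.17, 0.712 and 1.36 RPKM at 5 mM and 10.9, 3.02 and 1.45 RPKM at 25 mM gave 1.46 ± 0.59, which did not pass (adjusted p = 0.0762). It passed with voom (1.73, adjusted p = 0.00408), with 1 fit of all 4 groups (adjusted p = 0.0412) and without replicate 3 at 25 mM (2.03, adjusted p = 0.0294), and was 0.75 without replicate 1.

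Both intronic Atf3 peaks were weak and passed in neither mark with limma, and the weaker passed in H3K18La with voom (adjusted p = 0.0491). The stronger (chr1:191189707-191190457) had H3K18La of 1.26, 0.257 and 0.981 RPKM at 5 mM and 2.71, 2.29 and 0.898 RPKM at 25 mM, with 0.89 ± 0.55 (adjusted p = 0.225). Its H3K27Ac was 1.23 and 1.501 RPKM against 2.78 and 1.61 RPKM, with 0.50 ± 0.46 (adjusted p = 0.389). The Atf3 H3K27Ac value changed sign under each of the 3 other scalings, and the H3K18La value when libraries were scaled to signal in peaks (-0.095) but not when centred on the median or quantile normalized. The second Klf4 peak (chr4:55529872-55530971) lay between 0 and 1.64 RPKM in all 10 libraries and was below the mean needed for testing.

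**Figure D3:**
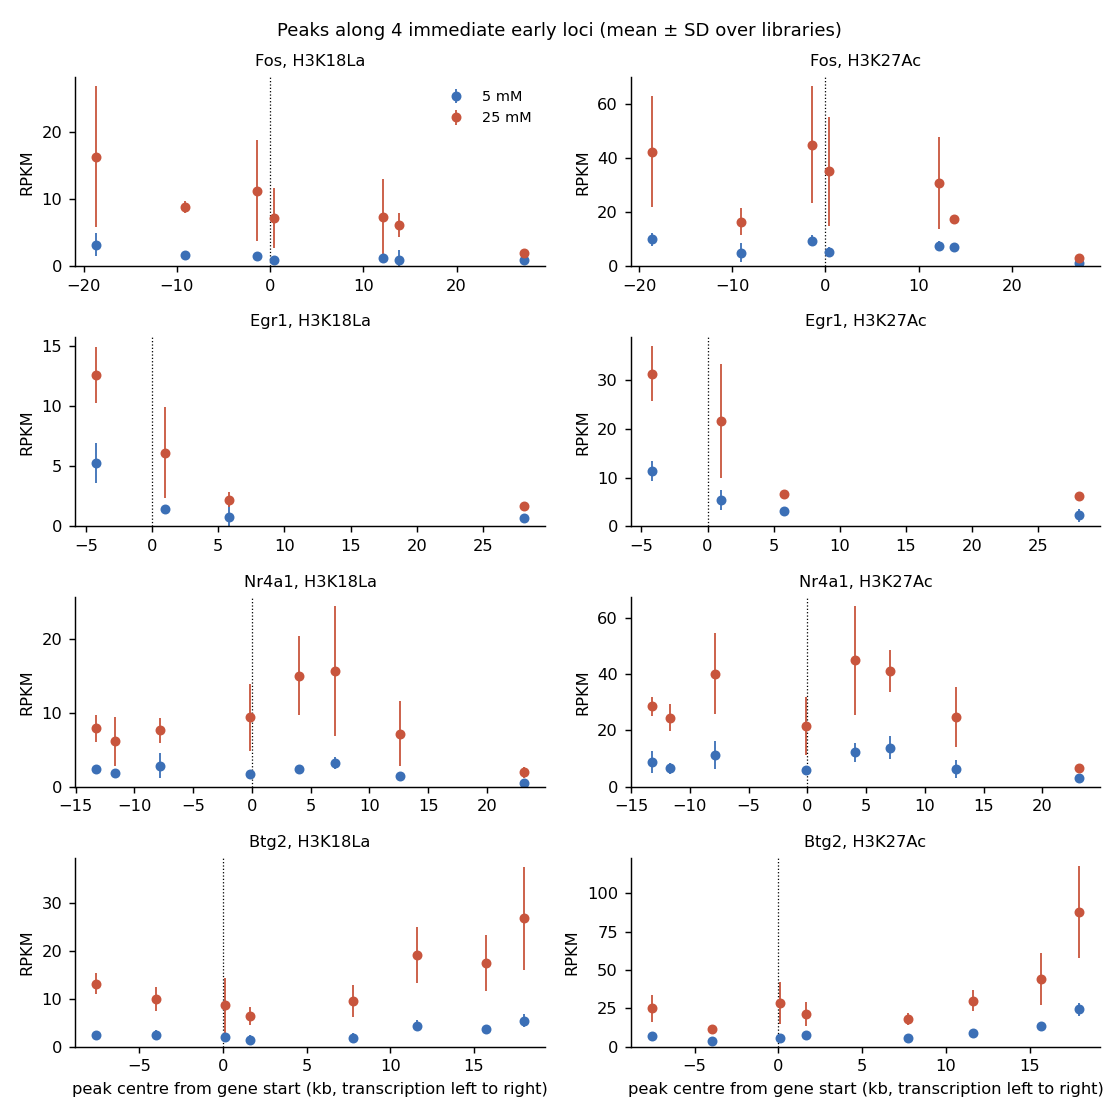
H3K18La (left) and H3K27Ac (right) in RPKM (mean ± SD over libraries) at each peak of Fos, Egr1, Nr4a1 and Btg2 against the distance of the peak centre from the 5′-most annotated start of the gene in kb, blue for 5 mM and red for 25 mM. The tallest Btg2 peak is the one farthest downstream, at 26.8 RPKM of H3K18La and 87.7 RPKM of H3K27Ac at 25 mM, and the Nr4a1 peaks inside the gene exceed both of its promoters.

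**Figure D4:**
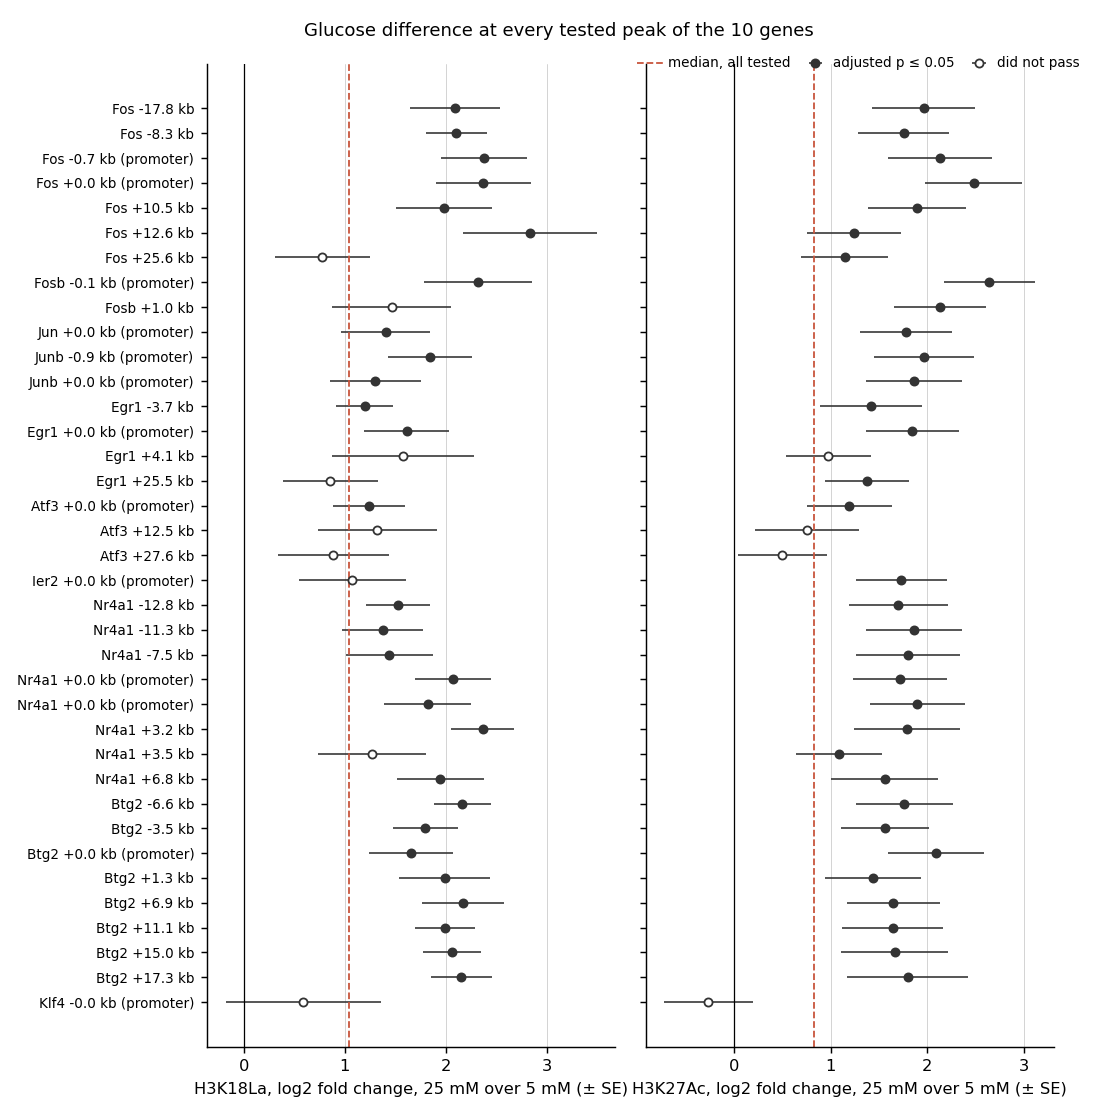
Log2 difference (25 mM over 5 mM, ± SE) at the 37 tested member peaks for H3K18La (left) and H3K27Ac (right); filled circles passed the adjusted p of 0.05, open circles did not, and the dashed red line is the median of all tested peaks. The rows name the gene and the distance to the nearest start in kb; 33 of 37 H3K18La values and 34 of 37 H3K27Ac values lie to the right of the dashed line.

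The glucose difference in H3K18La was set against that in H3K27Ac by an interaction term over all 10 libraries. No member passed, and 0% of all tested peaks did; the lowest adjusted p of a member was 0.903. At an unadjusted p under 0.05 there were 0 member peaks and 3650 peaks in all, and voom on the recovered reads also called 0. The member differences between the marks ran from -0.67 to 1.59, the former at the Fosb exon peak and the latter at the Fos peak 12567 bp downstream, with a median of 0.13. At Ier2, which passed in H3K27Ac alone with limma on each mark, the difference between the marks was -0.66 with an adjusted p of 0.914.

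Another 3 lists of related genes were read at the strongest promoter peak of each gene. Among 14 AP-1 partners and other EGR and NR4A factors, 8 were tested. With limma H3K18La rose at 0 of them (median difference 1.04), where 26.4% of all genes rose (median 0.96), and 3 had an unadjusted p under 0.05. With voom it rose at 4, where 40.7% of all tested peaks rose. H3K27Ac rose at 4 of the 8 (median 1.00, against 1.27 over all genes, of which 59.8% rose), a share below that of all genes, among them Jund, the third JUN family member, by 2.31 ± 0.50 from 5.83 ± 2.39 to 32.1 ± 17.0 RPKM (adjusted p = 0.000361). Jdp2, a repressor of AP-1, rose by 1.43 ± 0.44 (adjusted p = 0.0095), and its difference was 0.80 without replicate 1 at 25 mM. Nr4a3, the relative of Nr4a1, rose by 1.38 ± 0.46 (adjusted p = 0.0143). The H3K27Ac calls at Jund, Jdp2 and Nr4a3 all depended on both 25 mM libraries.

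Of 29 other immediate early and activity genes, 24 were tested, and 12 rose in H3K18La (median 1.22), where 26.4% of all genes rose with a median of 0.96. With voom 18 rose, where 40.7% of all tested peaks did. In H3K27Ac 16 of the 24 rose (median 1.26), near the 59.8% and the median of 1.27 of all genes. The largest H3K18La rises were at Npas4, a neuronal activity factor, by 2.30 ± 0.65 (adjusted p = 0.0193), Dusp5, a nuclear ERK phosphatase, by 2.21 ± 0.51 (adjusted p = 0.00725), and Per1, a clock gene, by 2.19 ± 0.65 (adjusted p = 0.0238). Those of Npas4, Dusp5 and Per1 rested on 0 to 10 reads per 5 mM library. Without replicate 1 or 2 at 25 mM, Npas4 (adjusted p = 0.101 and 0.0521) and Per1 (adjusted p = 0.108 and 0.0563) no longer passed, nor did they with a pseudocount of 0.1 (0.0604 and 0.0815) or no filter on low values (0.0797 and 0.0971). The Per1 difference was 1.317 without replicate 3 at 5 mM. The largest in H3K27Ac were at Trib1, a pseudokinase gene, by 2.09 ± 0.48 (adjusted p = 0.000815), Per1 by 1.99 ± 0.56 (adjusted p = 0.00514) and Klf10, a KLF family gene, by 1.99 ± 0.49 (adjusted p = 0.00152). Per1 had the highest H3K27Ac of these, 53.7 ± 13.3 RPKM at 25 mM against 13.1 ± 2.93 RPKM at 5 mM. The H3K27Ac calls at Trib1, Per1 and Klf10 depended on both 25 mM libraries.

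Among 23 upstream regulators and brakes, all tested, H3K18La rose at 5 (median 1.11), a share below the 26.4% of all genes (median 0.96). With voom it rose at 9, where 40.7% of all tested peaks rose. H3K27Ac rose at 17 (median 1.35), where 59.8% of all genes rose (median 1.27). With RPKM as deposited, no gene of the 3 lists was lower at 25 mM at an unadjusted p under 0.05 with limma, nor passed as lower with voom. The 3 largest H3K18La rises were all in MEF2 genes, which encode activity-dependent factors, Mef2d by 2.12 ± 0.46 (adjusted p = 0.00546), Mef2c by 1.62 ± 0.31 (adjusted p = 0.00301) and Mef2a by 1.47 ± 0.42 (adjusted p = 0.0203). The call at Mef2a was lost without replicate 2 at 5 mM (adjusted p = 0.064) and without replicate 1 (0.0898) or 2 (0.0522) at 25 mM. In H3K27Ac the largest were at Crtc2, a CREB coactivator, by 2.04 ± 0.49 (adjusted p = 0.00129), and Srf by 1.85 ± 0.46 (adjusted p = 0.00181). Srf encodes the factor that binds the CArG box. Mef2d followed with 1.82 ± 0.55 (adjusted p = 0.00778), and these H3K27Ac calls also depended on both 25 mM libraries.

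The 5 genes outside these lists whose promoter profile was most like the median profile of the 10 genes over the 10 libraries were Snrk, Tmem135, Plekhb1, A930003A15Rik and Ddah2, with Pearson's r from 0.995 to 0.998 among 12592 genes. Such likeness was common, since 29.1% of those genes had r above 0.9 and the median was 0.848, and the libraries share their scale. Among the 10 genes themselves, r was lowest for Klf4 (0.397) and Ier2 (0.881) and at least 0.952 for the others. Snrk, the nearest, had 1.83 ± 0.301 and 9.03 ± 5.46 RPKM of H3K18La and 7.15 ± 1.88 and 29.7 ± 17.2 RPKM of H3K27Ac at 5 mM and 25 mM.

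Markers of retinal cell types were read in the same way. Over all genes, 26.4% rose in H3K18La (median 0.96) and 59.8% in H3K27Ac (median 1.27). With voom, 40.7% and 34.8% of all tested peaks rose. All 7 rod markers had a promoter peak and rose in both marks, with a median H3K18La difference of 2.49 and a summed level of 11.7 to 15.3 RPKM at 5 mM and 56.1 to 138 RPKM at 25 mM. Their H3K27Ac sum was 47.8 to 85.7 RPKM at 5 mM and 227 to 412 RPKM at 25 mM, with a median difference of 2.11. Of 5 Müller glia markers, 4 had a promoter peak, with sums of 2.57 to 5.65 RPKM and 6.77 to 11.0 RPKM in H3K18La. Of the 3 tested, 0 rose in H3K18La with limma (1 at an unadjusted p under 0.05 and 1 with voom; median 0.77) and 2 rose in H3K27Ac (median 1.33). Of 5 microglia, 4 pigment epithelium and 3 endothelium markers, 1 each had a promoter peak, with levels of at most 3.87, 2.57 and 5.22 RPKM in any library. Cone, bipolar, amacrine, ganglion and horizontal cell markers had promoter peaks at 4 of 5, 4 of 5, 3 of 5, 3 of 5 and 1 of 3 genes, and their highest H3K18La sums at 25 mM were 16.2, 3.47, 10.0, 2.78 and 0.724 RPKM. All 4 bipolar markers with a peak rose in H3K27Ac, with a median of 1.64 and sums of 3.92 to 5.71 RPKM at 5 mM and 17.3 to 30.6 RPKM at 25 mM, while 0 of them rose in H3K18La (0 also at an unadjusted p under 0.05 and with voom; median 0.22). Of 3 cone markers tested, 1 rose in either mark, with medians of 1.53 in H3K18La, where all 3 passed with voom, and 0.84 in H3K27Ac. The 1 amacrine marker tested rose in both marks (1.82 and 1.73), and the 1 ganglion cell marker in H3K27Ac with limma but not with voom (1.55; 0.70 in H3K18La). The 1 endothelium marker had differences of -1.80 and -1.25. The part of cell composition in the differences was not tested.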

How the data were processed

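CUT&Tag for H3K18La and H3K27Ac was done in 10 libraries of mouse retinal explants. The study's methods name the nf-core/cutandrun pipeline and GRCm38, MACS peaks, blacklist removal, counting with csaw and annotation with ChIPseeker 1.34.1 (promoters from -1000 to 500 bp of a start). The authors deposited RPKM values for a shared peak set; all values were whole multiples of 1 read (within 0.001 reads), so reads and denominators were recovered, but whether normalization factors enter the denominators is not given in the sources used here. A further deposited table holds the authors' own H3K18La comparison and was not used. Groups came from the sample labels. limma 3.58.1 (R 4.3.3; lmFit, eBayes with trend) was run on log2(RPKM + 0.5), a scale that understates changes at weak peaks; its code was tested on simulated data. The tests kept to the deposited unit, and voom on the recovered reads, which called 29562 H3K18La and 25263 H3K27Ac peaks, stood beside them as an alternative. The interaction used all 10 libraries. GENCODE M21 and RefSeq (GRCm38.p6) gave annotation and sequence. Shares of reads carry Wilson 95% intervals, which cover counting error only, as reads are not independent molecules.

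The genes and lists were chosen with earlier results of these data known. Named were the strongest promoter and strongest other peak of each gene, peaks called lower or in the interaction (none), per list and mark the 3 largest called rises and falls, and the 5 genes most like the median profile; other peaks and values were named after they were seen. The design text calls the assays biologically replicated, but the labels do not tie libraries to animals. Alternatives covered pseudocount, filter, scaling, moderation, voom, a replicate block, a pooled fit, a threshold of 0.01 and leaving out each library.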

Additional observations from a re-analysis of the deposited data

How the results depend on the processing

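The number of member peaks called did not move by more than 1.5 times with pseudocounts of 0.1 or 1, a mean of at least 2 RPKM, robust moderation, voom, 1 fit of all 4 groups or a threshold of 0.01, in either mark. Of 24221 H3K18La peaks called in all, 1239 were called with libraries centred on the median, 0 scaled to signal in peaks or quantile normalized, and 12036 at a threshold of 0.01; of the 28 member peaks, 2, 0 and 0 were called under those 3 scalings. For H3K27Ac, with 24375 peaks and 33 member peaks called, the counts were 965 and 2 centred on the median, 0 and 0 scaled to signal in peaks or quantile normalized, 0 and 0 with no filter on low values, 7349 and 25 with 1 fit of all 4 groups, and 9942 and 22 at a threshold of 0.01. At an unadjusted p under 0.05 and with no filter, 32 H3K27Ac member peaks and 31013 peaks in all still passed; scaled to signal in peaks, 9 and 15 member peaks did in H3K18La and H3K27Ac (10.8% and 16.6% of all peaks), and quantile normalized, 8 and 6 (9.88% and 10.9%). The cause was not tested. With 1 library left out, 14383 to 23391 H3K18La peaks and 22 to 28 members were called, and 9 to 38534 H3K27Ac peaks and 0 to 34 members; the lowest H3K27Ac counts came without replicate 1 at 25 mM (9 peaks) and without replicate 2 (878 peaks and 2 members), where the lone library was taken to vary like the others. The interaction, which already uses all 4 groups, called 0 peaks under each of the other settings.

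Replicate numbers are shared between groups. Deviations of same-numbered libraries correlated by only 0.013 to 0.029 across peaks within a mark. Between the marks the correlations were -0.015 and -0.00081 at 5 mM, and 0.19 (replicate 1) and 0.073 (replicate 2) at 25 mM. With a median of 1 to 5 reads per peak in the H3K18La libraries, counting error holds such correlations down, so they could not exclude pairing. The labels do not tie libraries to animals, and the main fits took no pairing. With a replicate block, 23446 H3K18La peaks and 28 members, and 7813 H3K27Ac peaks (10.7% of all rose) and 7 members, were called. With promoter peaks summed per gene, the median percentile of the genes at 5 mM was 70.7 in H3K18La and 68.5 in H3K27Ac.

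Among the strongest promoter and strongest other peak of each gene, signs turned at 3, of Klf4, Egr1 and Atf3. The Klf4 promoter difference in H3K18La was -0.29 centred on the median, -0.29 scaled to signal in peaks, -0.58 quantile normalized, -0.18 without replicate 3 at 5 mM and -0.033 without replicate 1 at 25 mM (-0.18 to 1.20 with a library left out), and in H3K27Ac 0.26 without replicate 2 at 25 mM (-0.79 to 0.26). The Egr1 peak 3746 bp upstream gave -0.16 scaled to signal in peaks and -0.38 quantile normalized in H3K18La, and -0.11 quantile normalized in H3K27Ac. The stronger Atf3 intron peak gave -0.095 scaled to signal in peaks in H3K18La, and -0.19 centred on the median, -0.50 scaled to signal in peaks and -0.024 quantile normalized in H3K27Ac. Over the other combinations of a named peak, a mark and a setting, 541 kept direction and call, 233 kept direction but no longer passed and 5 newly passed. Reads limit the H3K18La values at 5 mM, where member peaks held 0 to 33 reads per library.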
